A study of Mus musculus with 2 samples.

Results

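T cells and natural killer (NK) cells of the injured mouse tendon were described 14 days after surgery, from droplet-based single-cell RNA counts of 2 libraries. One library came from TrkA F592A mice (sample title INMPP1) and the other from TrkA WT mice (title Control), with 3 mice of 12 weeks pooled for each. TrkA is the receptor kinase for nerve growth factor, and the F592A change makes its kinase sensitive to bulky inhibitors, one of which gives the sample its title. The labels do not say whether WT mice were given the inhibitor too, so the mutation and the inhibitor cannot be told apart. A T or NK cell was a barcode with at least 2 UMIs (tags that each mark 1 captured RNA molecule) of Cd3d, Cd3e, Cd3g and Trac together, or at least 3 UMIs of Nkg7 and Klrb1c together. It also had under 5 UMIs per 10000 of the macrophage genes C1qa, C1qb and C1qc, and under 1% of UMIs from Col1a1, Col1a2 and Col3a1. This gave 128 cells of 8551 in the F592A library and 83 cells of 11485 in the WT library, 211 of 20036 in all. Each genotype had 1 library of pooled mice, so no difference was tested and none has a replicate check. Intervals throughout are at 95% and take in the error of counting alone.

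T cells recognise antigen through a receptor of paired chains, alpha with beta in most T cells and gamma with delta in a smaller lineage, and the CD3 proteins carry the signal inward. NK cells lack such a receptor and kill through granzymes and perforin. In barrier and connective tissue, many gamma-delta T cells are programmed to release interleukin-17A and interleukin-17F after injury, while regulatory T cells, set by Foxp3, restrain inflammation and release repair factors such as amphiregulin.

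The chosen cells carried the genes that define them, which is how they were chosen and not a finding. The T cell receptor arm took 107 F592A and 75 WT cells, and the Nkg7 and Klrb1c arm alone took 21 F592A and 8 WT cells. Of F592A cells 93 had a Cd3g UMI, 81 Cd3e, 55 Trac, 51 Nkg7 and 46 Ccl5, and of WT cells 63 had Cd3g, 43 Cd3e, 50 Trac, 27 Nkg7 and 22 Ccl5. The limit on the 4 receptor genes lay at 2 UMIs: 8 F592A and 7 WT cells had exactly 2, and 53 F592A and 44 WT barcodes with 1 UMI fell just outside. T and NK cells were shallow next to the tissue, with a median of 4997 UMIs in F592A and 3955 in WT, against 18199 in F592A and 16294 in WT over all cells.

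The libraries shared 764 barcodes, which were left out and held 4 F592A and 5 WT barcodes of the set, and Scrublet called 1 F592A and 0 WT cells of the set doublets. Some chosen cells carried other lineages, and these were kept in the counts above. At 20 or more UMIs per 10000 on a list of endothelial, mural, mast, neutrophil, B or Schwann cell markers were 11 F592A and 13 WT cells, with a median of 15425 UMIs in F592A and 13978 in WT. Most were mural, the contractile cells around vessels, with 7 in F592A and 10 in WT. In the mural-like cluster described last, 13 of 14 cells had Trac, with 27 UMIs, but the cluster held 1 UMI of Cd3g. Mural cells outside the set had single Trac UMIs in 34 of 552 F592A and 33 of 494 WT cells and 0 of Cd3e. By the rule, such cells could hold at most 1 UMI of the 4 receptor genes together. Single UMIs, and no Cd3e beside Trac, were thus set in advance, and only how many cells had each gene could vary. One WT cell, over the limit on the mast cell list, alone held all 932 WT UMIs of the chymase Cma1. A further WT cell, with 46712 UMIs, held 8.81% of all WT counts in the set. Macrophage transcripts were also unequal: the 14-gene macrophage list, of which all 14 genes were detected in each library, had a median of 4.26 UMIs per 10000 in F592A cells (range 0 to 50.5) and 11.1 in WT cells (range 0 to 90.8). The dendritic cell list had 9 of 14 genes detected in F592A, with a summed level of 464 CPM (UMIs scaled to a common total) and a range of 0 to 23.2 UMIs per 10000 over cells, and 8 of 14 in WT, with 819 CPM and a range of 0 to 41.9. Its defining genes Flt3, Clec9a and Siglech were at 0 in both libraries. The B and plasma cell list had 3 of 10 genes detected in F592A (24.5 CPM in sum) and 4 of 10 in WT (60.4 CPM), with Cd79a and Ms4a1 at 0 in both. The part of these transcripts in the results was not tested. Values are therefore given, where they move, without the 11 and 13 cells of other lineages ("lymphoid cells", 117 in F592A and 70 in WT) and without the deep WT cell as well. That screen did not use the macrophage, dendritic cell or stromal lists, so lymphoid cells were not cleared of such transcripts. Their macrophage list summed to 453 CPM in F592A and 1374 CPM in WT. On it, 1 F592A and 15 WT lymphoid cells still had 20 or more UMIs per 10000.

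T and NK cells made up a larger share of the F592A library. They were 1.50% of F592A cells (1.25 to 1.78) and 0.723% of WT cells (0.576 to 0.895), which gave a ratio of 2.07 (interval 1.57 to 2.73). Among leukocytes with a UMI of Ptprc, the pan-leukocyte phosphatase CD45, they were 113 of 2295 in F592A (4.92%) and 68 of 3230 in WT (2.11%), a ratio of 2.34 (interval 1.74 to 3.14). The macrophage share ran the other way, at a ratio of 0.843, and the neutrophil share was near equal, at 1.06. Larger shares in F592A were not limited to T and NK cells: the ratio was 1.27 for dendritic cells (interval 1.06 to 1.52), 1.50 for endothelial cells (interval 1.35 to 1.67) and 1.50 for mural cells (interval 1.33 to 1.69). The limit on C1q removed 1 F592A and 16 WT barcodes that a limit of 20 per 10000 would have kept, and at that limit the ratio was 1.75 (interval 1.35 to 2.27). In neutrophils, C1q averaged 0.654 UMIs per 10000 in F592A and 1.55 in WT. The part of such free or shared macrophage RNA in the difference in share was not tested. Without other-lineage cells the ratio was 2.24, and with both changes it was 1.84 (interval 1.40 to 2.43). A further setting dropped every cell with 3 or more UMIs of the macrophage, neutrophil, B and plasma, endothelial, mural or mast cell list. It kept 66 F592A cells but 8 WT cells, a ratio of 11.1, and did not use dendritic, stromal or Schwann cell lists. Shares of dissociated cells also move with the dissection and with survival in digestion, and do not give cell numbers in the tissue.

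**Figure D1:**
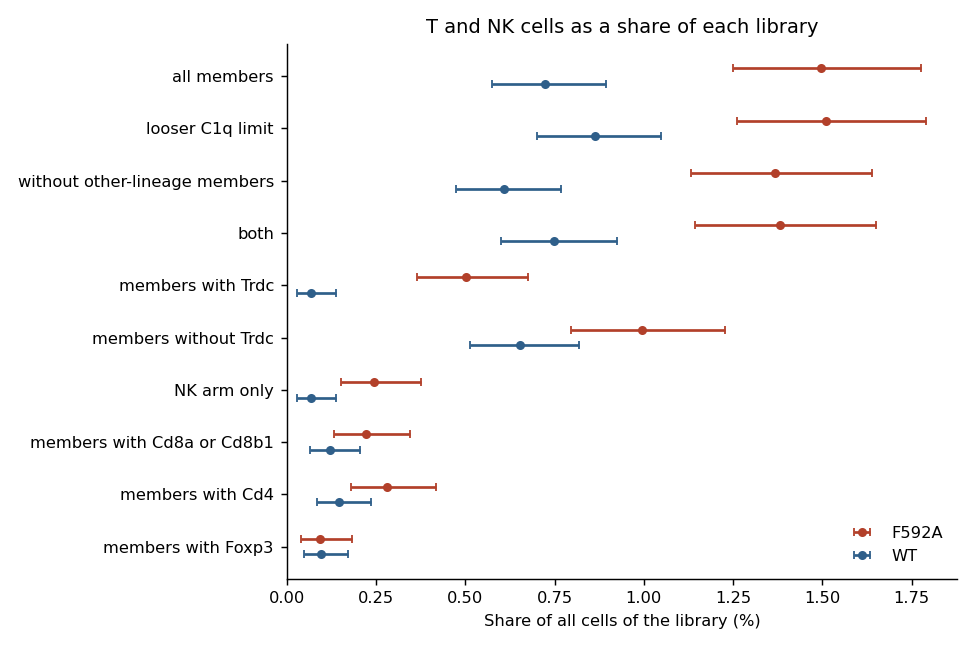
Share of all cells of each library (x axis, percent) taken by T and NK cells and by their marker-defined subsets, with F592A in red above WT in blue and bars for exact binomial 95% intervals of 1 library each. All T and NK cells sit at 1.50% in F592A and 0.723% in WT, cells with Trdc have the highest ratio of the subsets drawn (0.503% and 0.0697%), and cells with Foxp3 overlap (0.0936% and 0.0958%).

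The subsets differed in how far apart the libraries lay. Cells with Trdc, the constant segment of the T cell receptor delta chain, were 43 of 8551 in F592A (0.503%, interval 0.364 to 0.677) and 8 of 11485 in WT (0.0697%, interval 0.0301 to 0.137), a ratio of 7.22 (interval 3.40 to 15.3). Cells without Trdc were 85 in F592A (0.994%) and 75 in WT (0.653%), a ratio of 1.52 (interval 1.12 to 2.07). With the looser C1q limit and without other-lineage cells, those without Trdc numbered 75 in F592A and 77 in WT, a ratio of 1.31 whose interval, 0.953 to 1.80, included 1. Cells chosen by the NK arm alone were 0.246% in F592A and 0.0697% in WT, a ratio of 3.53 (interval 1.56 to 7.96). Cells with Cd4, the coreceptor of helper T cells, were 24 in F592A and 17 in WT, a ratio of 1.90 (interval 1.02 to 3.53). Cells with Cd8a or Cd8b1, the coreceptor of cytotoxic T cells, were 19 in F592A and 14 in WT, a ratio of 1.82 (interval 0.914 to 3.63). Foxp3 cells took close to equal shares of the libraries, with 8 in F592A and 11 in WT, a ratio of 0.977 (interval 0.393 to 2.43).

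The promoter sequences are shown for the interleukin-17 genes, because Il17a had the largest F592A over WT ratio among the genes named below and Il17f lies beside it. They are the 250 bases before each start in the RefSeq promoter table for GRCm38.p6, read 5' to 3' on the gene's strand. Il17a is at chr1:20730655-20730904 on the plus strand, directly before the gene body at chr1:20730905-20734496. Il17f is at chr1:20784271-20784520 on the minus strand, within the longer GENCODE gene body of chr1:20777146-20790617. Capitals mark AGGTCA, a core that many nuclear receptors are known to bind, or TGACCT, the same core read on the other strand.
Il17a: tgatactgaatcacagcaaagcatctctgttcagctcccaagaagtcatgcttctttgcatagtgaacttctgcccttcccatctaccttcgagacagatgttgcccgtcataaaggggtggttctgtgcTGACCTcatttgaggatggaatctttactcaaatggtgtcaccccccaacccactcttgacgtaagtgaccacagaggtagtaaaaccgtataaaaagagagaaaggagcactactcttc
Il17f: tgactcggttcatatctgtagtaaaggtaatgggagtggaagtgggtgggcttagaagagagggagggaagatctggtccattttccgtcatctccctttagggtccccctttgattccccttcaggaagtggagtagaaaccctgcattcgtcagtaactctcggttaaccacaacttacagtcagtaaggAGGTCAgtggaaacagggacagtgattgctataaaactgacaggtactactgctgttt
The Il17a window held TGACCT 120 bases before the start, and the Il17f window held AGGTCA 58 bases before it. One or the other was found in 4607 of 32851 promoters of the same length (14.0%), searching both strands. A match is a description of letters and was not tested as a binding site.

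Gamma-delta and type 17 genes had the highest median ratio of the 22 lymphocyte and cell state lists examined. Trdc (ENSMUSG00000104876, chr14:54142851-54148868, plus strand, GRCm38) was found in 43 of 128 F592A cells, with 1 to 46 UMIs and a median of 5, and in 8 of 83 WT cells, with 2 to 30 UMIs and a median of 6. Positive cells thus carried similar amounts, and the libraries differed in how many cells were positive. The share was 33.6% in F592A (interval 25.5 to 42.5) and 9.64% in WT (interval 4.25 to 18.1), a ratio of 3.49 (interval 1.73 to 7.03). With each cell thinned to 1000 UMIs, 28 F592A and 8 WT cells were positive, a ratio of 2.27 (interval 1.09 to 4.74). Neutrophils, which should lack the gene, gave 1 of 127 in F592A and 1 of 161 in WT, at median depths of 3063 and 2510 UMIs. Positive cells were no deeper than the others, with medians of 4975 against 5019 UMIs in F592A and 3695 against 4043 in WT. Trdc UMIs were also counted in 297 of 4879 F592A and 540 of 6752 WT stromal cells, at 5.04 CPM in F592A and 6.16 CPM in WT. In T and NK cells Trdc stood at 475 CPM in F592A (interval 429 to 524) and 160.3 CPM in WT (128 to 198), and the log2 ratio was 1.57 (interval 1.22 to 1.92). Without other-lineage cells and the deep WT cell it was 1.12. Among the 66 F592A and 8 WT cells kept by the limit of 3 UMIs given above, the ratio of shares was 1.58. There the log2 ratio of the level turned to -1.19.

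Il17a (ENSMUSG00000025929), the cytokine that recruits neutrophils and activates stroma, was detected in 16 of 128 F592A cells and in 1 of 83 WT cells. The F592A cells held 112 UMIs, with a median of 2 and a highest value of 32, and the WT cell held 3. The level was 137 CPM in F592A (interval 113 to 165) and 5.66 CPM in WT (1.17 to 16.5), and the log2 ratio was 4.60 (interval 3.02 to 6.90). It was 2.36 without cells with Trdc and 1.12 among the 66 and 8 cells. Nearly every Il17a UMI of the set was in F592A cells, and no neutrophil of either library had one. Il17f was less far apart, in 11 F592A cells with 69 UMIs, of which 31 came from 1 cell, and in 4 WT cells with 21 UMIs. Its log2 ratio was 1.10 (interval 0.37 to 1.87). In lymphoid cells without the deep WT cell it was 0.57, with an interval of -0.16 to 1.35 that included 0. It turned to -0.64 without cells with Trdc and to -2.24 among the 66 and 8 cells. Of cells with Trdc, 15 of 43 in F592A and 1 of 8 in WT also had Il17a or Il17f. Il23r, the receptor that sustains such cells, was in 16 F592A and 7 WT cells.

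The receptor segments and surface genes of these cells were likewise higher in F592A. Trdv4, a delta variable segment, was in 25 F592A cells with 75 UMIs and in 4 WT cells with 11 UMIs, a log2 ratio of 2.15. Cd163l1, a scavenger receptor of interleukin-17-producing gamma-delta cells in mice, was in 25 F592A cells with 120 UMIs and in 7 WT cells with 31 UMIs, a log2 ratio of 1.33 (interval 0.75 to 1.95). Blk, a Src-family kinase needed for these cells in mice, had 62 UMIs over 30 F592A cells and 6 UMIs over 5 WT cells, a log2 ratio of 2.75 (interval 1.55 to 4.25). Among the 66 and 8 cells the log2 ratio of Cd163l1 turned to -1.10 and that of Blk was 0.46. In the 160 cells without Trdc, Blk had 3 UMIs, all in F592A. The value of -0.22 obtained there counts the 0 WT UMIs as 3, so it is a bound and shows no turn. In each of these genes no single cell held more than 16 UMIs. Tcrg-C1, a gamma chain constant segment, was in 27 F592A and 9 WT cells, but in 8 and 7 after thinning, a ratio of 0.741. Gamma constant genes are near-identical copies, so reads may have been split among them.

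Of the 22 genes on the gamma-delta and type 17 list, 12 had enough UMIs to be measured, and 9 were at least 1.5-fold higher in F592A and 0 lower. Their median log2 ratio was 1.27, against -0.10 over the 3623 genes measured, of which 12.3% were 1.5-fold higher and 21.2% lower. Maf, a factor of the type 17 programme, was among them at 352 CPM in F592A and 153 CPM in WT. Tmem176a and Tmem176b, ion channel genes of type 17 lymphocytes, had log2 ratios of -0.17 and -0.12, with intervals that included 0. Without other-lineage cells and the deep WT cell the median was 0.84, and 8 of 12 were higher. Without cells with Trdc it lay at -0.062 relative to the median of all genes measured. Among the 66 and 8 cells it was below 0, and the ratio of shares for Il17a or Il17f was 0.788. Over all T and NK cells the measured genes of the list ranged from -0.17 to 4.60.

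**Figure D2:**
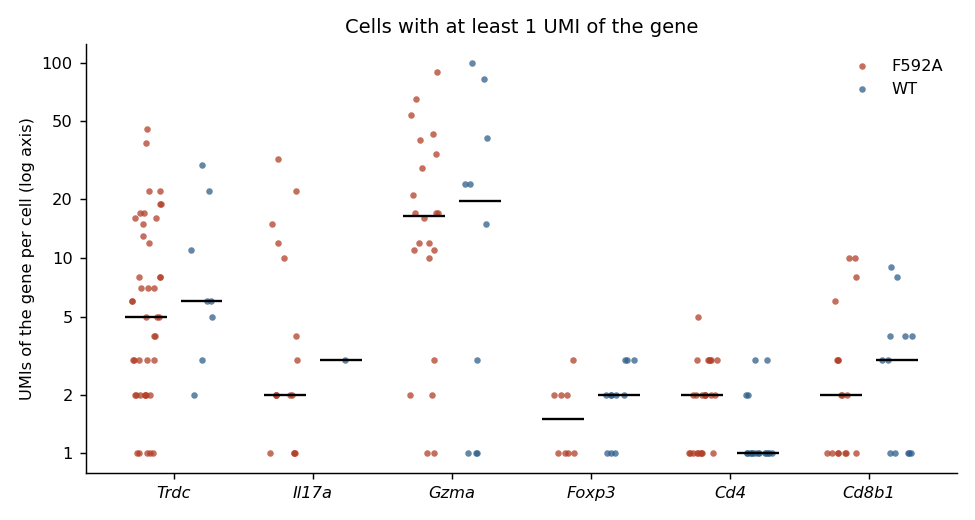
UMIs per cell (y axis, log scale) for 6 marker genes, with 1 point per cell with at least 1 UMI, F592A in red left of WT in blue, and the median as a black line. For Trdc the medians are near (5 and 6) while positive cells number 43 in F592A and 8 in WT, and Il17a has 16 F592A points and 1 WT point.

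Over both libraries, the 51 cells with Trdc were compared with the other 160 to describe what they share, since Trdc chose them. They carried 568 CPM of Cd163l1, against 3.68 CPM in the others, and 251 CPM of Blk, against 2.76. Cxcr6, a chemokine receptor of tissue-resident lymphocytes, was at 1102 CPM in cells with Trdc and 219.9 CPM in the others. Trac was lower, at 42.5 CPM against 239, and Cd4 and Foxp3 were at 0 UMIs, against 65.3 and 32.2 CPM. Gzma was 213 CPM in cells with Trdc and 684 in the others. Across the 211 cells, thinned log counts of Trdc were closest to those of Fgl2, Cd163l1, Tcrg-C1, Blk and Smox, with Pearson r of 0.38 to 0.44 over cells that share 2 libraries, and 36 cells held Trdc after thinning.

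Receptors for position in tissue differed next. Cxcr6 was found in 78 F592A cells with 396 UMIs (486 CPM) and in 33 WT cells with 128 UMIs (241 CPM), a log2 ratio of 1.01 (interval 0.72 to 1.31). Thinned, 44 F592A and 14 WT cells were positive, a ratio of 2.04 (interval 1.19 to 3.48), and no neutrophil was. Without other-lineage cells and cells with Trdc, the Cxcr6 log2 ratio was 0.24 and its interval, -0.14 to 0.63, included 0. Ccr2, the receptor for monocyte chemokines, was 0.55 over all cells and -0.02 in that remainder. Of the 7 measured chemokine and sphingosine phosphate receptors, 4 were at least 1.5-fold higher in F592A and 0 lower, with a median of 0.86. In lymphoid cells without the deep WT cell its median was 0.29, with 1 higher. Rgs1, which damps chemokine receptor signals, was 495 CPM in F592A and 207 CPM in WT (log2 ratio 1.26), and it stayed at 0.78 (interval 0.38 to 1.19) without cells with Trdc and other lineages. Itgal, the integrin alpha chain of LFA-1, was 151 CPM in F592A and 50.9 CPM in WT, and its log2 ratio of 1.57 was 1.44 in the same remainder.

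NK and cytotoxic genes were split. Eomes, a factor of NK cells and memory CD8 T cells, had 58 UMIs in 22 F592A cells and 11 UMIs in 8 WT cells. Its log2 ratio was 1.78 (interval 0.83 to 2.86). Among the 66 and 8 cells it was -0.16, but a library at 0 UMIs was counted as 3, so that value may be a bound. Tbx21, the type 1 factor T-bet, had 31 F592A and 4 WT UMIs. Klra8, an activating NK receptor, had 56 UMIs in 11 F592A cells and 8 UMIs in 2 WT cells, and near-identical Klra copies make its assignment uncertain. Klrk1, the activating receptor NKG2D, was 204 CPM in F592A and 71.7 CPM in WT (log2 ratio 1.51), and Prf1, the pore-former perforin, had 43 F592A and 10 WT UMIs (1.48). Irf8, a factor also used by NK cells, was 184 CPM in F592A and 64.1 CPM in WT (1.52). In lymphoid cells without the deep WT cell, the log2 ratio was 1.01 for Klrk1, 1.04 for Prf1 and 1.08 for Irf8. Other NK receptor genes were split there. Klrc2 was 1.34, Klra8 1.75, Klra4 2.04 and Klra7 4.43, with intervals above 0. These had only 7, 8, 5 and 1 WT UMIs, in that order, and the Klra copies are near-identical. Klre1 at 0.37, Klrd1 at 0.11, Klrb1c at -0.13, Klrc1 at -0.43 and Ncr1 at -0.64 were among those whose intervals included 0. The secreted granzymes did not follow. Gzma (chr13:113093825-113100981, minus strand) had 508 UMIs in 22 F592A cells, with a median of 16.5 and a highest value of 90, and 291 UMIs in 10 WT cells, with a median of 19.5 and a highest value of 99. Its log2 ratio of 0.18 had an interval of -0.03 to 0.40. It turned to -0.26 (interval -0.47 to -0.05) in lymphoid cells without the deep WT cell, and it was 2.42 among the 66 and 8 cells. Gzmb, a granzyme also made by activated regulatory T cells, was lower in F592A, with 101 UMIs in 21 cells (124 CPM) against 153 UMIs in 21 WT cells (289 CPM), a log2 ratio of -1.22. One WT cell held 45 of these, and without other-lineage cells and the deep WT cell the ratio was -1.75. It was -0.37 among the 66 and 8 cells and -0.072 with the cells of the T arm and of the NK arm given equal weight.

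The NK list had 9 measured genes of 20, with 5 at least 1.5-fold higher and 2 lower and a median of 0.73. One of the lower genes was Cma1, whose WT UMIs came from the mast cell. In lymphoid cells without the deep WT cell, 3 of 7 were higher and 0 lower, with a median of 0.47. Relative to the median of all genes measured, the NK median was 0.83 over all T and NK cells, 0.094 with both arms given equal weight and -0.050 with a stricter lymphocyte gate, of at least 3 UMIs of the receptor genes or 5 of Nkg7 and Klrb1c. The CD8 and cytotoxic list had 6 of 15 higher and 1 lower, with a median of 0.39, and there it was 0.04. Xcl1 (chr1:164931644-164935527, minus strand), a chemokine that attracts cross-presenting dendritic cells, was in 20 F592A cells with 70 UMIs and in 3 WT cells with 18 UMIs, a log2 ratio of 1.34 (interval 0.58 to 2.17). In lymphoid cells without the deep WT cell it was 0.70, with an interval of -0.08 to 1.55 that included 0. After thinning, 9 F592A cells and 1 WT cell were positive. Ifng, the macrophage-activating interferon, was in 14 F592A and 5 WT cells, a ratio of shares of 1.82 whose interval, 0.679 to 4.85, included 1. Ccl5, a T cell attracting chemokine, had 1991 UMIs in F592A and 985 in WT, a log2 ratio of 0.39 that became -0.04 without other-lineage cells and the deep WT cell.

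Regulatory T cell genes were lower in F592A as a share of T and NK transcripts. Tnfrsf4, the costimulatory receptor OX40 (chr4:156013843-156016612, plus strand), had 78 UMIs in 20 F592A cells (95.7 CPM, interval 75.6 to 119) and 198 UMIs in 28 WT cells (373 CPM, interval 323 to 429). Its log2 ratio was -1.96 (interval -2.36 to -1.58), and -2.22 without other-lineage cells and the deep WT cell. The WT value rested on many cells, the richest of which held 40 UMIs. Foxp3 (chrX:7573644-7595245, plus strand) was in 8 F592A cells with 13 UMIs and in 11 WT cells with 22 UMIs, and no cell held more than 3. The Foxp3-positive share of T and NK cells, 6.25% in F592A and 13.3% in WT, had a ratio of 0.472 with an interval of 0.198 to 1.12 that included 1. Il1rl1, the interleukin-33 receptor ST2, had 25 F592A and 43 WT UMIs, and Ctla4, an inhibitory receptor, 59 F592A and 76 WT UMIs, with log2 ratios of -1.40 and -0.99. Tnfrsf18, the receptor GITR, was 134 CPM in F592A and 266 CPM in WT.

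Of 10 measured genes on the regulatory T cell list, 0 were at least 1.5-fold higher and 7 lower, with a median of -0.87. In lymphoid cells without the deep WT cell, 5 of 8 were lower, with a median of -1.03. Checkpoint and costimulation genes, which share members with that list, had 3 of 7 lower and a median of -0.38, which was -1.22 there. After thinning, its median lay at 0.41 relative to all genes measured, against -0.28 on that scale unthinned. A CPM is a share of all T and NK transcripts, so it also moves with the makeup of the set. Without cells with Trdc and cells of other lineages, the Tnfrsf4 log2 ratio was -1.88 (interval -2.30 to -1.47). As a share of all cells of a library, Foxp3 cells had the ratio of 0.977 given above. Of Foxp3 cells, 5 of 8 in F592A and 7 of 11 in WT also had Il1rl1, and 4 in F592A and 6 in WT had Areg, which encodes amphiregulin. Penk, the precursor of enkephalin opioid peptides, was in 3 Foxp3 cells of F592A, with 4 to 21 UMIs each over the 3 F592A cells with Penk, and in 1 of WT.

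CD4 and CD8 T cells took similar parts of the set in both libraries. Cd4 was in 18.8% of F592A cells (interval 12.4 to 26.6) and 20.5% of WT cells (interval 12.4 to 30.8). Cd8a or Cd8b1 was in 14.8% of F592A cells (interval 9.18 to 22.2) and 16.9% of WT cells (interval 9.54 to 26.7). Ccr7, a receptor of naive and recirculating lymphocytes that guides them into lymph nodes, was in 8 F592A and 12 WT cells. Trac was found in a smaller share of F592A cells, 43.0% against 60.2% in WT, a ratio of 0.713 (interval 0.547 to 0.930), and it is one of the genes that chose the cells. Ltb, which encodes lymphotoxin beta, was in 71.9% of F592A and 71.1% of WT cells, and Cd69, an activation and residency receptor, in 29.7% of F592A and 30.1% of WT cells. Ltb was also in 87 of 127 F592A and 86 of 161 WT neutrophils, so its share here cannot be read as particular to lymphocytes. Cd69 was in 12 F592A and 14 WT neutrophils, Ramp1 in 11 and 6 and Mki67 in 6 and 3, and Ptprc marks all leukocytes. Each other gene given as a share of cells was in at most 4 neutrophils of a library. For the genes of the rule, such as Cd3e, Cd3g, Trac and Nkg7, this was limited in advance and shows nothing. Cells that met the rule could not be counted as neutrophils. Ramp1, part of the receptor for the sensory neuropeptide CGRP, was in 50 F592A and 39 WT cells.

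**Figure D3:**
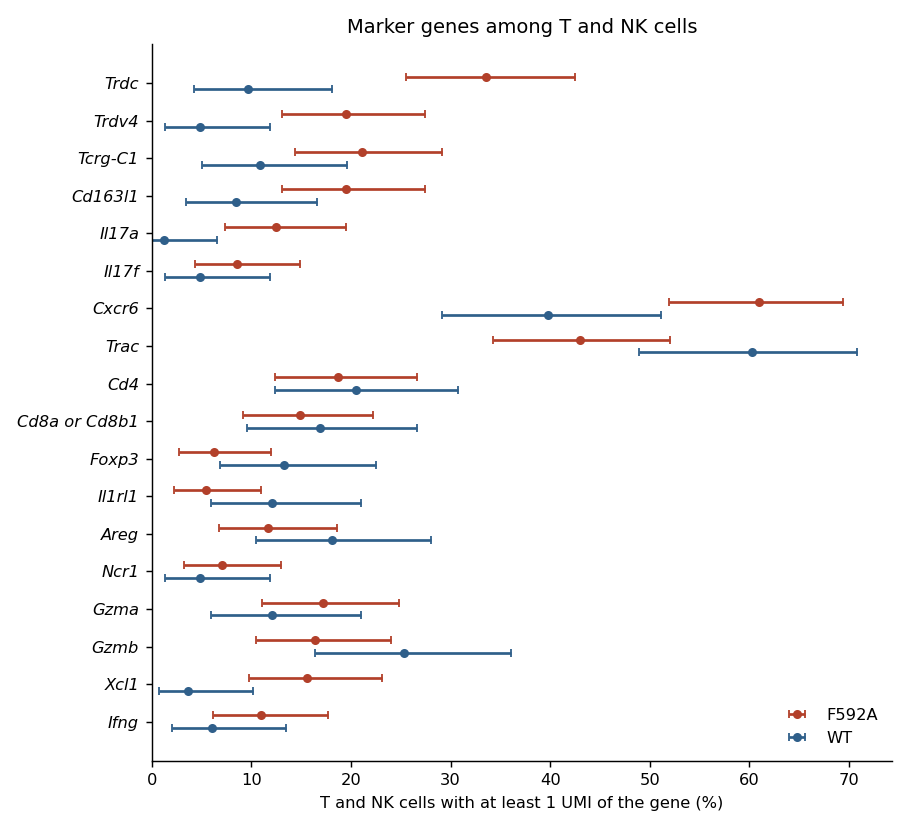
Share of T and NK cells with at least 1 UMI of each gene (x axis, percent), F592A in red above WT in blue, with exact binomial 95% intervals of 1 library each. Trdc, Trdv4 and Il17a lie higher in F592A (Trdc 33.6% and 9.64%), Cd4 and Cd8a or Cd8b1 overlap, and Trac lies lower (43.0% and 60.2%).

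Some secreted products of the whole tissue came mostly from these few cells. T and NK cells held 112 of the 125 Il17a UMIs of the F592A library (89.6%, interval 82.9 to 94.3) and 3 of 5 in WT. They held 82.1% of Il17f in F592A and 84.0% in WT, and 76.7% of Gzma in F592A and 65.5% in WT. Xcl1 was held at 77.8% in F592A (interval 67.8 to 85.9) and 36.0% in WT (interval 22.9 to 50.8). Ifng was held at 77.3% in F592A, 17 of 22 UMIs (interval 54.6 to 92.2), and 25.0% in WT, 5 of 20 (interval 8.66 to 49.1). Fasl, the ligand of the death receptor Fas, was held at 88.4% in F592A and 55.6% in WT. Products known from lymphocytes but made more widely were held less, with Ccl5 at 32.2% in F592A and 25.7% in WT and Areg at 1.84% and 1.22%. Tnf was 0.211% in F592A and 0.177% in WT, and Tgfb1 was 0.982% and 0.395%. A larger number of T and NK cells raises each such share. UMIs of Il22, Il4 and Il5 were at 0 in the set.

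Cells with 2 or more UMIs of a cell cycle list after thinning were a smaller part of the F592A set. After thinning to 1000 UMIs, 51 of 128 F592A cells (39.8%, interval 31.3 to 48.9) and 48 of 83 WT cells (57.8%, interval 46.5 to 68.6) carried 2 or more UMIs from a 40-gene list, a ratio of 0.689 (interval 0.520 to 0.913). Neutrophils, which do not divide, gave 11.8% in F592A and 12.4% in WT. The rate in lymphocytes that do not divide was not measured. Unthinned, 122 F592A and 76 WT cells reached that number. At 1 UMI or more the ratio was 0.902 (interval 0.785 to 1.04). Mki67, a marker of dividing cells, was in 16 F592A and 14 WT cells and did not separate the libraries. The largest part of the list was H2afz, a histone variant, with 759 F592A and 893 WT UMIs. Of 17 measured genes on the list, 13 were at least 1.5-fold lower and 0 higher. Without other-lineage cells and the deep WT cell 2 of 9 were lower, and Ube2c, a mitotic ubiquitin ligase, had a log2 ratio of 0.94. Over all T and NK cells it was -2.57, with 21 F592A and 81 WT UMIs, of which 1 WT cell held 41.

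Over all genes, 3180 had at least 50 UMIs in both libraries together and at least 50 CPM in the higher. Of these, 114 (3.58%) were at least 2-fold higher in F592A and 256 (8.05%) at least 2-fold lower, 370 (11.6%) in all. The scale matters to that split: by TMM it was 186 higher and 178 lower, and by median-of-ratios scaling 188 and 171, which shift every log2 ratio up by 0.15 and 0.16. In lymphoid cells it was 64 (2.43%) higher and 120 (4.56%) lower of 2630 genes, and without the deep WT cell as well 49 (1.97%) and 64 (2.57%) of 2490. The 12 named genes with the highest ratios were Il17a, Acp5, Blk, Ctsk, Klra8, Slc16a6, Arsb, Eomes, Cemip2, Rnf145, Itgal and Trdc. Acp5 and Ctsk, an acid phosphatase and a protease of osteoclasts, rested on single F592A cells, with 91.1% of the Acp5 and 80.7% of the Ctsk UMIs in 1 cell. Without other-lineage cells 9 of these 12 were still at least 2-fold higher, and Acp5, Ctsk and Cemip2 were not. Of the 9, Arsb had 37 F592A and 6 WT UMIs there, under the minimum of 50. Slc16a6, a monocarboxylate transporter, had 80 UMIs in 48 F592A cells and 12 UMIs in 10 WT cells, a log2 ratio of 2.12 spread over many cells.

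The 12 with the lowest ratios were Cox4i2, Hmgn3, Mnd1, Ube2c, Galk1, Birc5, Ndufa4l2, Prdx4, Ift43, Tnfrsf4, Sorbs2 and Cdca8. Cox4i2 and Ndufa4l2, mitochondrial respiratory chain genes of perivascular cells, had their highest level in mural cells, as did Hmgn3, Mnd1 and Ift43. Cox4i2 had 16 UMIs in 5 F592A cells and 78 UMIs in 7 WT cells. Without other-lineage cells and the deep WT cell, 5 of the 12 were still at least 2-fold lower. Of these, only Tnfrsf4, with 68 F592A and 152 WT UMIs there, reached the minimum of 50. The others had fewer F592A and WT UMIs: Hmgn3 4 and 7, Ndufa4l2 1 and 5, Birc5 18 and 18, and Prdx4 15 and 22.

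Immediate early and dissociation genes had 11 of 26 measured genes at least 1.5-fold lower and 2 higher, with a median of -0.47, which was -0.47 also in lymphoid cells without the deep WT cell. Nfkbia, an inhibitor of NF-kB induced by stress and cytokines, was 548 CPM in F592A and 1062 CPM in WT. Interferon response genes had a median of -0.15, with Isg15, an interferon-induced ubiquitin-like protein, at 56.4 CPM in F592A and 128 CPM in WT. In lymphoid cells without the deep WT cell the median of that list was -0.72, with 4 of 7 lower. Relative to all genes measured it was -1.21 among the 66 and 8 cells and -1.27 after thinning. Oxidative phosphorylation genes had a median of -0.10 over 40 genes, the same as all genes. T cell receptor and signalling genes lay at 0.07 over 23 genes, with 5 higher and 1 lower, and in lymphoid cells without the deep WT cell at -0.17, with 0 higher and 5 lower. Genes of the transforming growth factor beta response had a median of 0.46, with 3 of 9 higher, and 0.22 there.

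**Figure D4:**
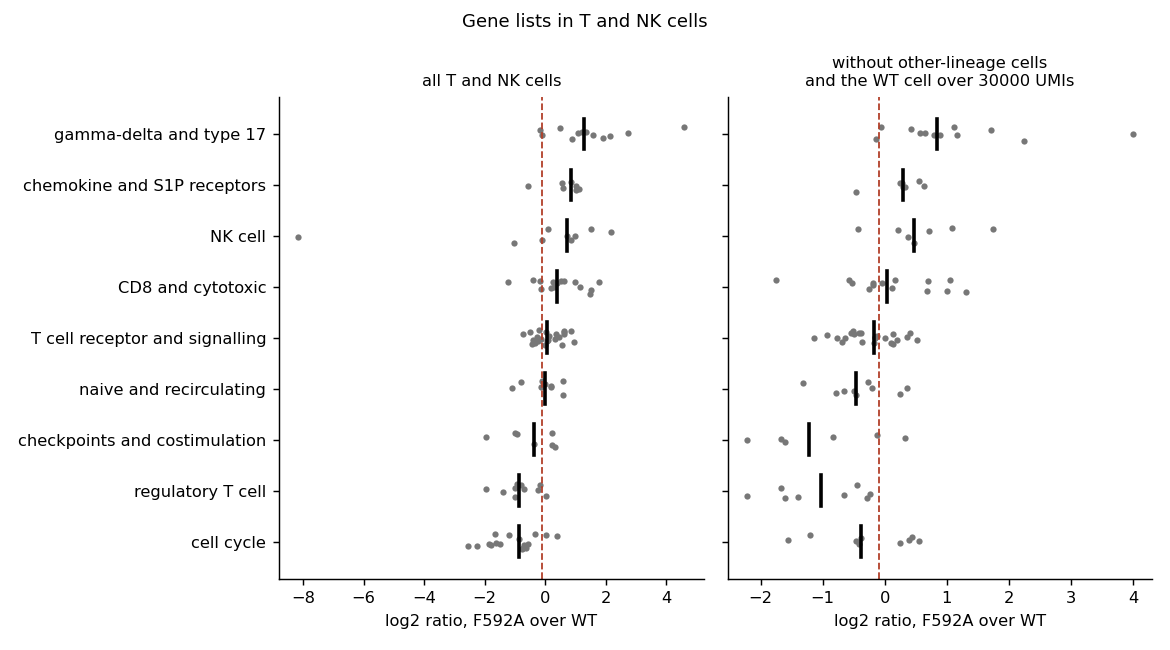
Log2 ratio of F592A over WT (x axes, which differ in range) for the measured genes of 9 lists in all T and NK cells (left) and without other-lineage cells and the WT cell of over 30000 UMIs (right); 1 point per gene, black bar for the list median, dashed line for the median of all genes. The gamma-delta and type 17 list lies highest in both panels (medians 1.27 and 0.84) and the regulatory T cell list lies low in both (-0.87 and -1.03).

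Clustering of the 211 cells gave 8 groups, described by their leading genes, which are not results since they defined the groups. Cluster 4, with 29 F592A and 5 WT cells, was gamma-delta or type 17 T-like, led by Trdc, Il17a, Cd163l1, Tcrg-C1 and Blk, with Trdc at 2265 CPM and in 31 of its 34 cells. Cluster 0, with 19 F592A and 11 WT cells, was led by Ramp3, Pxdc1, Tmem64, Lmo4, Il23r and Zbtb16 and stayed unnamed, as too few of the fixed markers were detected. It had Cd3g in 29 of 30 cells, Cxcr6 at 764 CPM, Trdc in 12 cells and Cd40lg in 4. Cluster 2, with 23 F592A and 8 WT cells, was NK-like, led by Gzma, Irf8, Klra8 and Car2, and 27 of its 31 cells had been chosen by the NK arm alone. Its Trac was 1 UMI, and its Ccl5 reached 8054 CPM.

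Cluster 6, with 24 F592A and 12 WT cells, was led by Cd8a, Ms4a6b, Dapl1 and Cd8b1 and also stayed unnamed, with Cd8a in 18 of 36 cells and Ccl5 at 6871 CPM. Cluster 3, with 16 F592A and 13 WT cells, was CD4 T-like, with Cd4 in 19 of 29 cells. Cluster 5, with 6 F592A and 11 WT cells, was regulatory T-like, with Foxp3 in 13 and Tnfrsf4 in all 17 cells. It was led by Penk, whose 38 UMIs came from 4 cells, and held Areg at 929 CPM and Gzmb at 1161 CPM. Cluster 1, with 6 F592A and 8 WT cells, was mural-like, led by Rgs5, Acta2 and Myl9. Cluster 7, with 5 F592A and 15 WT cells, was led by the mixed genes Mmp9, S100a9, Il1b and Ctsk and had Cd3g in 15 of 20 cells. It met the marker count for a neutrophil-like name, with 5 neutrophil markers detected, but S100a9 was in only 5 of its 20 cells. Of the 20 cells, 8 were of other lineages. The name was not used, since the cells had been chosen by T and NK genes. Within clusters 0, 2, 3, 4, 5 and 7 the leading genes differed between the libraries by a median of over 0.5 on the log2 scale, so cluster sizes were not compared. At a higher resolution all 31 cells of cluster 2, all 17 of cluster 5 and all 36 of cluster 6 stayed together, and 27 of the 34 in cluster 4. Cluster 7 split there. Of its 20 cells, 13 joined a cluster led by Plvap, Selp and Cdh5 that met the marker count for an endothelial-like name. The other 7 met it for a neutrophil-like one.

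**Figure D5:**
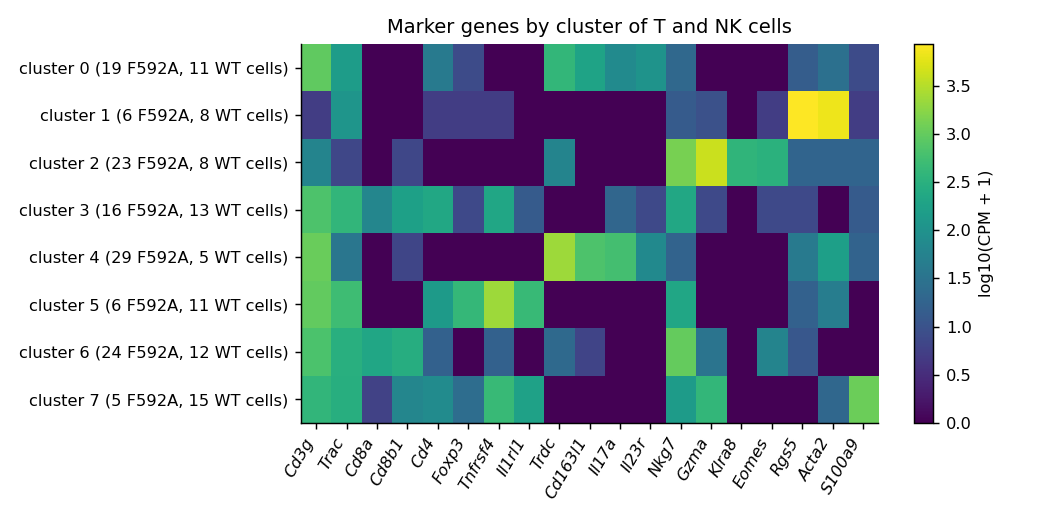
Level of 19 marker genes (columns) in the 8 clusters of T and NK cells (lines of the grid), coloured by log10(CPM + 1) over the summed counts of both libraries, with cell numbers of F592A and WT beside each cluster. Trdc, Cd163l1 and Il17a peak in cluster 4, Gzma and Klra8 in cluster 2, Foxp3 and Tnfrsf4 in cluster 5, and the mural genes Rgs5 and Acta2 in cluster 1.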

How the data were processed

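Single cells of the injured tendon area were profiled by 10x Genomics droplet capture, in 1 library of TrkA F592A mice and 1 of TrkA WT mice. The authors' deposited matrices hold whole UMI counts for 32285 features, and per the file headers they were made with Cell Ranger 6.0.1. Cell Ranger 2.1.1, mm10 and Seurat stand in the submitters' processing notes, and the sources used here do not settle the version. Every deposited barcode had at least 500 UMIs. The files held 10677 F592A barcodes with 181472230 UMIs and 14868 WT barcodes with 222874195 UMIs.

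Cells had at least 1000 UMIs, at least 500 genes and at most 15% mitochondrial UMIs, and their barcode was absent from the other library. UMIs were summed over T and NK cells of a library (815371 in F592A and 530236 in WT) and given as CPM of that sum. Intervals are exact binomial for shares, exact Poisson for sums and exact conditional binomial for ratios of sums, while ratios of shares have Katz log intervals. PCR and capture errors are not covered. A gene was considered with at least 50 UMIs in all and at least 50 CPM in the higher library, and lists used genes with at least 50 UMIs. The named genes were the 12 highest and 12 lowest ratios among those at least 2-fold apart whose interval excluded a ratio of 1 and whose level was at least 1/4 of that in the highest other cell class. Mitochondrial, ribosomal, haemoglobin, immunoglobulin, T cell receptor segment, sex-linked and unnamed genes were left out of that choice. Of each of the 22 lymphocyte and cell state lists, the 4 genes with the most UMIs could also be named, as could the marker genes, the genes held most by T and NK cells and the 5 genes most like a marker over cells. Further genes named in the text, such as Cd163l1 and Klrk1, are members of these lists and were chosen with their values known. The cells, lists and rules were chosen with earlier results of these data known.

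Clustering used scanpy 1.11.5 with 1500 variable genes, 15 components, 10 neighbours and Leiden resolution 1, with 1.5 as the alternative. Scrublet was run per library, and its calls were kept in the main counts. Python 3.11.15, scipy 1.17.1 and edgeR 4.0.16 (for TMM factors only) were used. The interval and ratio steps were checked on simulated data. Coordinates of genes are those of GENCODE M21 on GRCm38, and promoter sequences from RefSeq on GRCm38.p6. Alternatives were another scale, gene minimum, cell filter, lymphocyte gate, C1q limit, doublet removal, weighting both arms of the gate equally, and leaving out cells of other lineages, the deep WT cell or cells with Trdc. A few marker genes are not reported here. Those alternatives on the C1q limit, other lineages at 20 UMIs per 10000, the deep cell and Trdc were chosen after seeing the data.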

Additional observations from a re-analysis of the deposited data

How the results depend on the processing

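No paired analysis was possible because each genotype had 1 library of pooled mice. The ratio of shares was within its interval under 10 of 11 alternatives. The exception left out cells with 3 or more UMIs of the macrophage, neutrophil, B and plasma, endothelial, mural or mast cell list. There the ratio of shares was 11.1, the Trdc ratio 1.58, the number of 2-fold lower genes 74 and the ratio for Il17a or Il17f 0.788. That setting left 66 F592A and 8 WT cells. Log2 ratios there were -0.90 for Arsb, -1.10 for Cd163l1, -1.59 for Ctsk and -0.16 for Eomes. They were -2.24 for Il17f, -3.29 for Penk, -0.59 for Rnf145 and -1.19 for Trdc. A gene at 0 UMIs in 1 library was counted as 3 UMIs there, which makes its ratio a bound. For such a gene, a value below 0 does not show a lower level in F592A. The cause of these differences from the main setting was not tested. Genes at least 2-fold higher and lower were 64 and 120 without other-lineage cells, 49 and 64 without the deep WT cell as well, 63 and 118 with the looser C1q limit and without other-lineage cells, and 44 and 115 at a minimum of 100 UMIs, where fewer genes were considered. By TMM 186 genes were higher, and by median-of-ratios 188. Gene signs that turned beyond the interval under other settings were as follows. With the stricter lymphocyte gate Sorbs2 was 3.39, and at 10% mitochondrial UMIs Ctsk was -0.99. Without other-lineage cells Acp5 was -0.14 and Ift43 0.14, the latter from 2 F592A UMIs and 1 WT UMI. Without the deep WT cell as well, Acp5 was -0.24, Ccl5 -0.038, Ctsk -0.13 and Ube2c 0.94. With the looser C1q limit and without other-lineage cells, Acp5 was -0.13, Ctsk -0.067 and Ift43 0.35. Thinned to 1000 UMIs, Birc5 was 1.38 and Galk1 0.96. Both rest on few UMIs, since before thinning Birc5 had 23 F592A and 71 WT UMIs and Galk1 12 and 38. Without cells with Trdc, Il17f was -0.64. Blk was -0.22 there, a bound with 0 WT UMIs counted as 3, which shows no turn. Gzma, 0.18 over all T and NK cells, was -0.11 with the stricter lymphocyte gate, -0.19 with the looser C1q limit, -0.057 without other-lineage cells, -0.26 without the deep WT cell as well, -0.36 with the looser C1q limit and without other-lineage cells, and -0.059 with both arms weighted equally. Cd4 was -0.46 after thinning. Of 514 recomputed gene levels, 403 stayed within their interval, and of 306 list medians 281 moved by less than 0.5. Relative to all genes measured, medians among the 66 and 8 cells were below 0 for gamma-delta and type 17, -0.16 for chemokine receptors, -0.54 for the transforming growth factor beta response and 0.55 for cell cycle genes, and after thinning -0.46 for T cell receptor and -0.95 for transforming growth factor beta response genes. At these depths, genes with under 50 UMIs in the set, such as Foxp3 and Ncr1, have wide intervals.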

Other observations

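Genes with the largest part of their UMIs held by T and NK cells, among those with at least 50 UMIs in them, included Il17a, Tcrg-C1, Cd8a, Cd3g and Cd163l1. Sh2d1a, which encodes the signalling adaptor SAP, was held at 93.9% in F592A and 66.7% in WT. Trbc1, a T cell receptor beta constant gene, was held at 90.0% in F592A and 76.7% in WT, and Cd6, a T cell surface receptor, at 86.4% and 72.3%. Trdc was an exception among receptor genes, held at 36.0% in F592A and 7.38% in WT, and stromal cells carried 634 F592A and 988 WT UMIs of it.

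Id3, a transcriptional inhibitor that also marks mural cells, was 167 CPM in F592A and 504 CPM in WT. Cxcl2, a neutrophil chemokine, was 129 CPM in F592A and 590.3 CPM in WT, with 0.0237% of its F592A and 0.0571% of its WT library UMIs in T and NK cells. Cd40lg, the helper signal CD40 ligand, had 25 F592A and 2 WT UMIs, a log2 ratio of 3.02 (interval 1.02 to 6.15). Penk UMIs were carried mostly by stromal cells, in 972 of 4879 F592A and 978 of 6752 WT cells, and T and NK cells held 0.647% of them in F592A and 0.0529% in WT.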
